A study of Mus musculus with 8 samples.

Results

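Matrix metalloproteinases were described by cell source in single-cell RNA counts from 2 pancreatic ductal adenocarcinoma tumors of KPC mice. The 8 members were the rows with the symbols Mmp2, Mmp3, Mmp7, Mmp9, Mmp10, Mmp12, Mmp13 and Mmp14, taken from 27775 gene rows that are the same in both count tables. KPC mice are a genetically engineered model that carries LSL-Trp53R172H/+ and Pdx-1-Cre, so that mutant p53 is switched on wherever the Pdx-1 promoter drives Cre, which includes the cells that form the pancreas. Both mice were untreated, and the labels give neither age nor sex. 1 tumor was called medium size and 1 large size, and each had 4 technical replicates that were pooled in 1 table. Each tumor was therefore 1 sample, and no test between tumors or between groups of cells was possible. Tumor size, mouse, library and sequencing run cannot be told apart, and the labels of the libraries also differ in a preparation term.

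Matrix metalloproteinases are zinc-dependent enzymes that cut collagens, laminins and other proteins outside the cell. Most are secreted as inactive proenzymes, whereas Mmp14 is anchored in the cell membrane and can activate the proenzyme of Mmp2. The TIMP proteins bind and inhibit the active enzymes. In tumors, these enzymes are made by cancer cells and by the fibroblasts and white blood cells around them, and many of the genes are known to be induced through AP-1, a dimer of Fos and Jun family proteins.

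The medium-size tumor had 2812 cells with 20301669 unique molecular identifiers (UMIs, each 1 captured RNA molecule), a median of 5456.5 UMIs per cell. The large-size tumor had 1533 cells with 2239012 UMIs, a median of 1037 per cell, and 5 barcodes occurred in both tables. The members held 12493 UMIs in the medium-size tumor, which is 615 counts per 1000000 UMIs (CPM), and 328 UMIs or 146.5 CPM in the large-size tumor. At least 1 member UMI was seen in 1918 cells (68.2%) of the medium-size and 206 cells (13.4%) of the large-size tumor. All 13 mitochondrial protein genes were listed at 0 in both tables. Levels below are CPM with an exact 95% Poisson interval, and ratios are ratios of CPM with an exact 95% conditional interval. These intervals cover counting error only: UMIs of 1 cell are not independent, and nothing here measures the spread between animals. Where a group held 0 UMIs, the limit given is the level that 3 UMIs would have made.

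Cells were clustered without the members, related genes and the neighbors of the members on chromosome 9, so the members did not shape the groups. Clusters were then called from marker genes. In the medium-size tumor, 2332 cells (82.9%) were epithelial-like, 238 monocyte/macrophage-like, 74 mesothelial-like, 67 stromal-like (fibroblast markers) and 39 endothelial-like. Another 62 cells formed a cluster with 12 of 13 epithelial and 9 of 11 macrophage markers, led by Laptm5, F10 and Prtn3, and were left unnamed. Of the cells in the large-size tumor, 1219 (79.5%) were epithelial-like, 253 macrophage-like, 50 stromal-like and 11 endothelial-like. No cluster was called as T, B, NK, dendritic, mast or granulocyte cells in either tumor. Whether an epithelial-like cell was a cancer cell was not tested.

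1 epithelial-like cluster in each tumor met the marker rule only just, with 3 of 13 epithelial markers, and the members turn on these clusters. That of the medium-size tumor was led by Inhba, Bmp2 and Piezo2 (227 cells). Its Krt8 and Krt18, the keratins of simple epithelium, stood at 1678 and 2978 CPM, against 310 and 443 CPM in stromal-like cells and 148 and 245 CPM in the main macrophage-like cluster. Endothelial-like cells had 1047 and 1413 CPM of them, and mesothelial-like cells 743 and 1065 CPM. Krt19, Krt7, Cdh1 and Epcam, an epithelial adhesion protein, were lower in the Inhba cluster, at 249, 342, 98.9 and 198 CPM. Endothelial-like cells had 702, 521.5, 98.6 and 665 CPM of these, and mesothelial-like cells 564.5, 375.5, 53.6 and 215 CPM. The Vim level of the Inhba cluster was 1574 CPM. Its Col1a1, the main collagen gene of fibroblasts, was 2.14 CPM against 3579 CPM in stromal-like cells. That of the large-size tumor was led by Ggct, Ramp1 and Ank (275 cells), with Krt8 at 768, Krt18 at 1058, Vim at 1652 and Col1a1 at 2.23 CPM. Values below are also given without these clusters where they change.

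Of the members, 5 lie close together on chromosome 9 of GRCm38 (mm10), all on the plus strand, with other genes between some of them. From the lower end these are Mmp13 (chr9:7272514-7283331), Mmp12 (chr9:7344381-7369499), Mmp3 (chr9:7445822-7455975), Mmp10 (chr9:7502352-7510240) and Mmp7 (chr9:7692090-7699585). Mmp12 overlaps the annotation of Mmp1b, and Mmp7 that of AV064505. Mmp2 (chr8:92827291-92853420), Mmp9 (chr2:164940780-164955850) and Mmp14 (chr14:54431612-54445364) lie elsewhere. In the last 600 bases of the longest transcript, where 3′ reads fall, 0 of 551 words of 50 bases in Mmp2, Mmp3, Mmp7, Mmp9, Mmp10 and Mmp13 occurred in another gene. Mmp12 had 7 and Mmp14 had 28 such words.

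The 100 bases before the transcription start are shown for the chromosome 9 members, because these neighbors differed from each other in cell source although their starts share a motif. The sequences are from RefSeq (GRCm38.p6, plus strand, 5′ to 3′), and capitals mark the AP-1 consensus TGAGTCA or its reverse complement TGACTCA. The Mmp12 window belongs to a second annotated start inside the gene. Mmp12 and Mmp7 each have a further annotated start without a match, and the Mmp14 window had none. No entry was found for Mmp2 and Mmp9.
Mmp13 (chr9:7272414-7272513): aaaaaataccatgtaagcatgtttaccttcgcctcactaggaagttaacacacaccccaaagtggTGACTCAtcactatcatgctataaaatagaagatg
Mmp12 (chr9:7347274-7347373): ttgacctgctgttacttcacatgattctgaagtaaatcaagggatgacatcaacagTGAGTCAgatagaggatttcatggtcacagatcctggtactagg
Mmp3 (chr9:7445722-7445821): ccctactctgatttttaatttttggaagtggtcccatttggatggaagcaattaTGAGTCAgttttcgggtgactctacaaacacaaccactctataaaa
Mmp10 (chr9:7502242-7502341): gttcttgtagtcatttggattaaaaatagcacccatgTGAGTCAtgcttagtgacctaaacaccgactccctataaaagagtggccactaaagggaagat
Mmp7 (chr9:7691990-7692089): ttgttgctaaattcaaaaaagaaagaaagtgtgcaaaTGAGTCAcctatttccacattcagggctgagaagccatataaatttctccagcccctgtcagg

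The motif was present before a start of 5 of the 5 chromosome 9 members. Counted by window, 5 of the 8 windows of the 6 members with an entry held it. Among 32851 windows of the same length, 1.88% held it on either strand. Counted back from the start, its first base lay at -35 in Mmp13, -44 in Mmp12, -46 in Mmp3, and -63 in both Mmp10 and Mmp7. A match of letters is a description and not a measured binding site.

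The gelatinases cut denatured collagen and basement membrane collagen. Mmp2 was the stromal member in both tumors. Its level in the medium-size tumor was 943 CPM (841 to 1053) in stromal-like cells, 33.2 in mesothelial-like, 16.4 in endothelial-like, 6.52 in macrophage-like and 3.04 in epithelial-like cells, with 0 UMIs in the unnamed cluster. The stromal-like level was 241 times (188 to 313.5) that of all other cells, and 313 of 391 Mmp2 UMIs (80.1%) fell in these 67 cells. At least 1 Mmp2 UMI was seen in 79.1% of stromal-like cells (73.1% after thinning each cell to 2500 UMIs) and in 1.63% of epithelial-like cells (0.643% after thinning), at medians of 4361 and 5974.5 UMIs per cell. The epithelial-like level of Mmp2 was 0.322% of its stromal-like level, and the median over the 10 fibroblast markers was 0.243%, with a range of 0.102% to 0.815%. A share at that level is read as background.

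Of 17 Mmp2 UMIs in the large-size tumor, 16 fell in stromal-like cells, at 235 CPM (134 to 381), and the other was in an epithelial-like cell. The ratio to all other cells was 509.7 with an interval of 79.2 to 21370, so its size was hardly fixed at this depth. Mmp2 was thus highest in stromal-like cells in each tumor among the classes with UMIs. Endothelial-like cells of the large-size tumor held 0 UMIs, and their limit of 188 CPM lies inside the stromal-like interval.

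Mmp9 had few cells behind it. The medium-size tumor had 128 CPM (91.9 to 174) in the unnamed cluster, 57.6 (43.1 to 75.3) in macrophage-like, 12.1 (3.28 to 30.9) in stromal-like and 5.14 (4.15 to 6.30) in epithelial-like cells. The 41 UMIs of the unnamed cluster came from 4 cells, 21 of them from 1 cell, and without that cell its level was 63.5 CPM. The 53 macrophage-like UMIs came from 12 of 238 cells, and 52 of them lay in the cluster led by Wfdc17, Chil3 and Lyz2. The epithelial-like cells held 93 of 191 UMIs in 36 of 2332 cells. That level was 8.93% of the macrophage-like level, above the range of the 11 macrophage markers in the same cells (0.530% to 3.08%).

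Granulocytes are a known source of Mmp9, and their markers were checked beside it. The summed level of the 8 granulocyte markers was 1237 CPM in the unnamed cluster, 182.5 in macrophage-like and 99.1 in epithelial-like cells, all in the medium-size tumor. In the unnamed cluster 7 of 8 were detected and Ly6g was at 0, while S100a8 (462 CPM), S100a9 (475 CPM) and Camp (149.9 CPM) made up most of the sum. Of 12 Mmp9 UMIs in the large-size tumor, 10 came from 3 macrophage-like cells at 51.0 CPM (24.4 to 93.7), where 6 of the 8 granulocyte markers were detected and summed to 9104 CPM. There S100a8 stood at 3833, S100a9 at 4323, Camp at 494 and Ngp at 372 CPM, Retnlg and Csf3r were at 71.4 and 10.2 CPM, and Ly6g and Cxcr2 were at 0. The part of granulocytes in the Mmp9 signal was not tested.

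**Figure D1:**
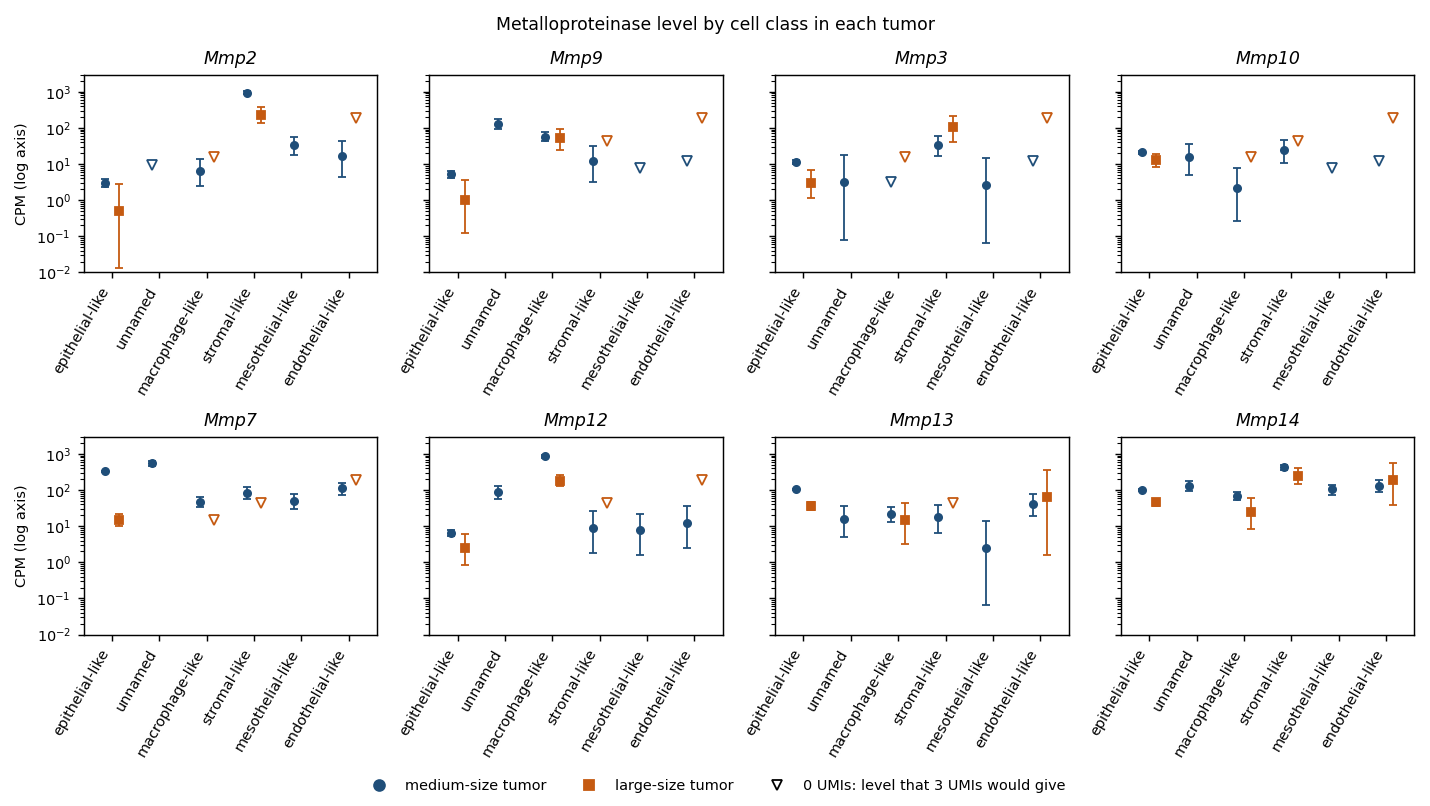
Level of each metalloproteinase (CPM, log axis) in each cell class of the medium-size (circles) and large-size tumor (squares); bars are exact 95% Poisson intervals and open triangles mark groups with 0 UMIs at the level 3 UMIs would give. Among classes with UMIs, Mmp2 is highest in stromal-like cells and Mmp12 in macrophage-like cells of both tumors, and Mmp14 was detected in every class. Endothelial-like cells of the large-size tumor held 0 UMIs of Mmp2 and Mmp12, at a limit of 188 CPM.

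Mmp12, the macrophage metalloelastase, cuts elastin. It was the macrophage member in both tumors. In the medium-size tumor it reached 852 CPM (793 to 913) in macrophage-like cells, 87.5 (58.1 to 126) in the unnamed cluster, and between 6.63 and 12.3 CPM in the 4 other classes, whose intervals overlap. Macrophage-like cells had 105 times (88.5 to 126) the level of all other cells and 784 of 941 UMIs (83.3%). Within them, the Wfdc17 and Chil3 cluster stood at 969 CPM (899 to 1043) and the cluster led by Cd74 and MHC class II genes at 397 CPM (312 to 498), which do not overlap. At least 1 UMI was seen in 106 of 238 macrophage-like cells (44.5%, or 38.2% after thinning) and in 3.86% of epithelial-like cells (1.67% after thinning), although epithelial-like cells were deeper. The epithelial-like level was 0.779% of the macrophage-like level, against a median of 0.858% over the macrophage markers, and is read as background. In the unnamed cluster it was 10.3% of the macrophage-like level, below the range of those markers there (24.8% to 49.9%).

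Of 41 Mmp12 UMIs in the large-size tumor, 36 fell in macrophage-like cells, at 183.5 CPM (128.5 to 254) and in 20 of 253 cells. Their ratio to all other cells was 75.0 (29.3 to 245). The median depth of these cells was 688 UMIs, against 3516 in the medium-size tumor. The remaining 5 UMIs lay in epithelial-like cells. Endothelial-like cells held 0 UMIs, with a limit of 188 CPM, so their place beside macrophage-like cells was not fixed.

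Mmp14, the membrane-type member, was the only 1 of the 8 with UMIs in every class of both tumors. Mmp7, Mmp12 and Mmp13 had UMIs in every class of the medium-size tumor as well. In the medium-size tumor the level was 428 CPM (360 to 504) in stromal-like cells, 131 in endothelial-like and in unnamed cells, 105 in mesothelial-like, 101 in epithelial-like and 67.3 (51.6 to 86.3) in macrophage-like cells. The stromal-like level was 4.25 times (3.56 to 5.04) that of all other cells, and the 4 groups from 101 to 131 CPM had overlapping intervals. Epithelial-like cells nevertheless held 1835 of 2154 UMIs (85.2%), since they were most of the cells. Their Mmp14 level was 23.7% of the stromal-like level, far above the fibroblast markers in the same cells (at most 0.815%). The large-size tumor had 249.5 CPM (145 to 399) of Mmp14 in stromal-like, 188 (38.7 to 549) in endothelial-like, 45.4 (36.5 to 55.9) in epithelial-like and 25.5 (8.28 to 59.5) in macrophage-like cells. The endothelial-like level rests on 3 UMIs, and the stromal-like level was 179 CPM without 1 cell that held 5 of its 17 UMIs, so the order of these classes was not fixed at this depth.

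The 4-fold rule compared sums with 10 CPM added to both sides, among genes with at least 50 UMIs in the cells compared. By this rule, in the medium-size tumor, 1 of 8 members (Mmp12) was higher in macrophage-like cells, where 2.9% of all genes tested were, and 1 of 8 (Mmp2) in stromal-like cells, where 2.37% were. Mmp9 was the member higher in the unnamed cluster, beside 0.705% of all genes. No member was called higher in epithelial-like cells as a whole, where 0.277% of genes were, and Mmp2 and Mmp12 were called lower there, beside 3.01% of genes. Mmp7 was called lower in macrophage-like cells (2.95% of genes), Mmp13 in the unnamed cluster (0.187%) and both in mesothelial-like cells (0.464%). The filter left, in the large-size tumor, 2 members, of which Mmp14 was called higher in stromal-like cells, beside 1.53% of genes, and Mmp13, with 0 UMIs there, lower, beside 9.73%. The limit at 0 UMIs was 44.0 CPM in these cells, above the 33.9 CPM of Mmp13 over the whole tumor, so a lower level was not fixed at this depth. Without the filter Mmp2 and Mmp3 in stromal-like and Mmp9 and Mmp12 in macrophage-like cells of this tumor were past 4-fold too, beside 2.3% and 2.39% of genes.

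**Figure D2:**
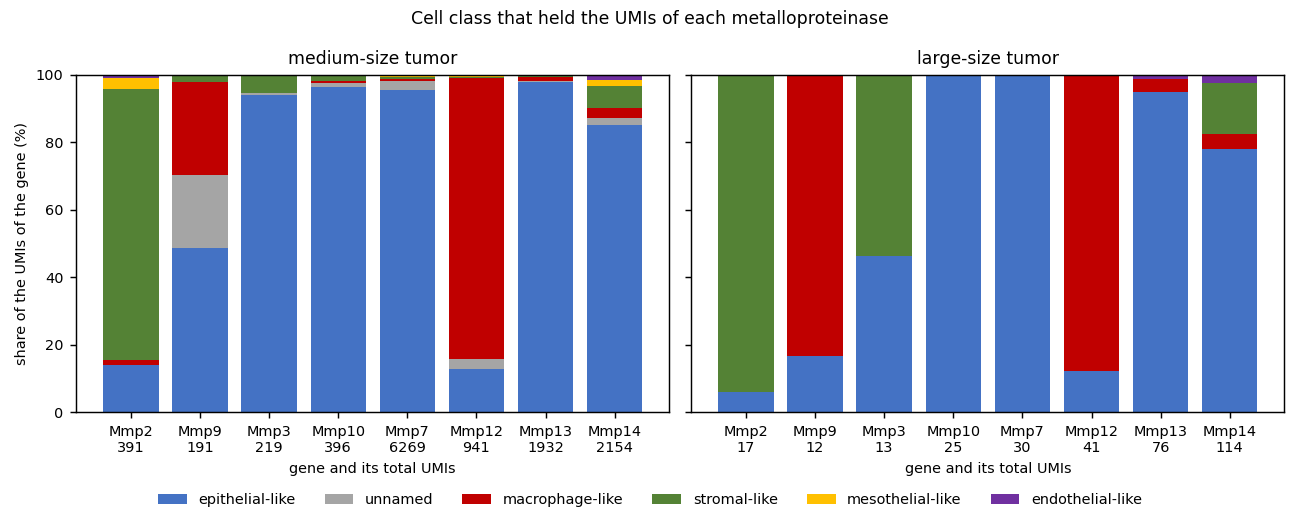
Share of the UMIs of each metalloproteinase (percent, y axis) by cell class, with the total UMIs of the gene under its name. Most Mmp2 UMIs lie in stromal-like and most Mmp12 UMIs in macrophage-like cells, while Mmp3 in the medium-size tumor and Mmp7, Mmp10 and Mmp13 in both lie mainly in cells of the epithelial-like class, which here includes the Inhba and Ggct clusters with few epithelial markers.

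Mmp7, or matrilysin, is the smallest member and is made mainly by glandular epithelium. In the medium-size tumor it held the most UMIs of the 8 members (6269), of which 95.3% were in epithelial-like cells at 330 CPM (322 to 339), 2.49 times (2.21 to 2.81) the level of all other cells. The unnamed cluster was higher at 547 CPM (469 to 634), and endothelial-like (111), stromal-like (84.4), mesothelial-like (48.5) and macrophage-like cells (47.8) were lower. In endothelial-like and mesothelial-like cells the share of the epithelial-like level was within or just below the range of the epithelial markers there. These ranges were 33.2% to 61.0% and 14.75% to 48.3%. Without the highest cell of each class, which held 17 of 27 UMIs in endothelial-like cells, the shares were 12.9% and 10.2%, below the ranges. In stromal-like cells the share was 25.5%, and 11.1% without the highest cell, both inside the range (6.38% to 27.3%). In macrophage-like cells it was 14.5%, and 9.94% without 1 cell that held 14 of the 44 UMIs, which is inside the range of these markers (4.96% to 10.7%). All 30 UMIs of Mmp7 in the large-size tumor were in 13 epithelial-like cells, at 15.3 CPM (10.3 to 21.9).

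Among epithelial-like clusters, Mmp7 marked a pair in the medium-size tumor. It stood at 1823 CPM (1751 to 1898) in the cluster led by Dmbt1, Lcn2 and Sftpd and at 1409 CPM (1352 to 1468) in that led by Tff3, Ly6d and Reg1. The Krt17 and Cldn4 cluster followed at 349 CPM (322 to 377). The cycling (Ube2c), Inhba and Gkn1 clusters lay between 55.2 and 62.5 CPM with overlapping intervals, and the Yap1 and Mcpt8 clusters at 23.0 and 22.3 CPM. The Dmbt1 cluster had 8.54 times (8.10 to 8.99) and the Tff3 cluster 6.33 times (6.002 to 6.67) the level of the other epithelial-like cells.

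The signal was spread over many cells. At least 1 Mmp7 UMI was seen in 85.8% of cells of the Dmbt1 cluster and 76.8% of the Tff3 cluster, and in 77.8% and 66.8% after thinning. By the 4-fold rule Mmp7 was the 1 member of 8 called higher in each, beside 0.403% of all genes in the Dmbt1 cluster and 0.375% in the Tff3 cluster. It was called lower in the Gkn1 (beside 0.234% of genes), cycling (0.169%), Yap1 (0.459%), Mcpt8 (0.356%) and Inhba clusters. Of these 30 UMIs in the large-size tumor, 21 lay in 6 cells of the Onecut2 cluster (95.4 CPM, 59.0 to 146), 11 of them in 1 cell, and 9 in 7 cells of the gastric pit-like Gkn2 cluster (30.2 CPM, 13.8 to 57.4).

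Mmp13 is a collagenase that cuts fibrillar collagen. Mmp3 and Mmp10 are stromelysins, which cut a broad range of matrix proteins and can activate other proenzymes. In the medium-size tumor these members were counted mainly in epithelial-like cells, with 97.8% of 1932 Mmp13 UMIs, 96.2% of 396 Mmp10 UMIs and 94.1% of 219 Mmp3 UMIs. The levels there were 104.5 CPM for Mmp13, 21.1 for Mmp10 and 11.4 for Mmp3. These rest on the Inhba and Bmp2 cluster, which held 53.5% of all Mmp13, 76.3% of Mmp10 and 75.3% of Mmp3 UMIs in 227 of 2812 cells. Without it, the epithelial-like level was 52.8 CPM (49.3 to 56.4) for Mmp13, 4.87 (3.86 to 6.07) for Mmp10 and 2.53 (1.81 to 3.43) for Mmp3. By level alone, the stromal-like cells were the higher class for Mmp3, at 33.1 CPM (16.5 to 59.3, 11 UMIs in 5 cells), and similar for Mmp10, at 24.1 CPM (10.4 to 47.5, 8 UMIs in 3 cells).

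Mmp13 stood at 553 CPM (520 to 588) in the Inhba cluster, then at 202 (185 to 220) in the Yap1 and Birc2 cluster, 54.5 (47.1 to 62.8) in the cycling cluster, 27.1 (19.8 to 36.3) in the Mcpt8 and Cldn6 cluster, and between 6.10 and 13.5 CPM in the 4 others. The Inhba cluster had 10.5 times (9.56 to 11.5) the level of the other epithelial-like cells and 11.35 times (10.4 to 12.4) that of all other cells. Mmp13 was found in 107 of its 227 cells (47.1%, or 30.0% after thinning), with up to 117 UMIs in a cell.

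Mmp10 and Mmp3 shared the upper places of this order, the Inhba and then the Yap1 cluster, at lower levels. Mmp10 was 161.5 CPM (144 to 181) in the Inhba cluster, 12.7 (8.71 to 17.8) in the Yap1 cluster and at most 7.23 in the other 6, a ratio of 33.2 (25.8 to 43.0) to the other epithelial-like cells. It was found in 76 of the 227 cells. Mmp3 was 88.2 CPM (75.3 to 103) in the Inhba cluster, 11.9 (8.07 to 16.9) in the Yap1 cluster and at most 2.72 elsewhere, a ratio of 34.9 (24.7 to 50.4). Its 165 UMIs came from 20 cells and 99 of them from 1 cell, and without that cell the level was 35.6 CPM. The ratio was then 14.1, or 19.9 when the highest cell of the comparison group was left out as well, and with 20 principal components it was 4.08.

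By the 4-fold rule Mmp3, Mmp10 and Mmp13 were higher in the Inhba cluster, 3 of 8 members beside 0.45% of all genes, and Mmp7 was lower, beside 0.693% of genes. The Mmp3 call rested on the 1 cell that held 99 of its 165 UMIs there. Without that cell Mmp3 stood at 35.6 CPM, against 2.53 CPM in the other epithelial-like cells. With 10 CPM added, these levels differ by less than 4-fold. The extremes of Mmp7 and Mmp13 did not meet in any cluster of the medium-size tumor: in the Dmbt1 and Tff3 clusters Mmp13 stood at 6.10 and 9.15 CPM. Mmp13 was called lower in these (beside 0.599% and 0.375% of genes), in the Gkn1 cluster and in the Krt17 cluster (0.365%). Mmp14 varied less, from 199 CPM (180 to 221) in the Inhba cluster through 171 (152 to 191) in the Krt17 and 158 (139 to 178) in the Mcpt8 cluster to 46.5 CPM (35.6 to 59.7) in the Dmbt1 cluster. The intervals of neighbors in this upper order overlap, while those of the Inhba and Mcpt8 clusters do not.

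**Figure D3:**
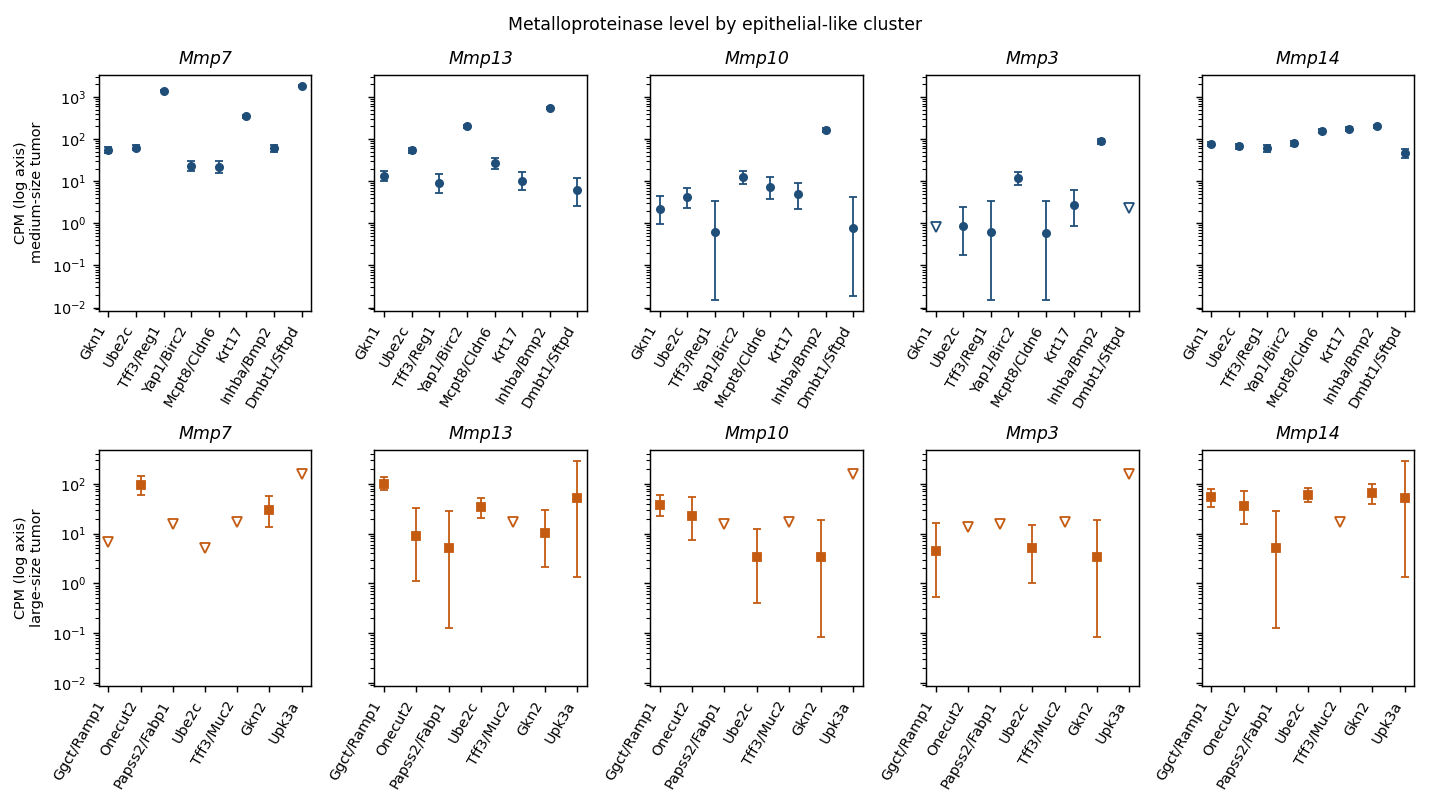
Level of 5 metalloproteinases (CPM, log axis) in the epithelial-like clusters of the medium-size (upper row) and large-size tumor (lower row), each cluster named by leading genes; bars are exact 95% Poisson intervals and open triangles mark 0 UMIs at the level 3 UMIs would give. Mmp7 peaks in the Dmbt1 and Tff3 clusters at 1823 and 1409 CPM, whereas Mmp13, Mmp10 and Mmp3 peak in the Inhba cluster at 553, 161.5 and 88.2 CPM.

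Mmp3, Mmp10 and Mmp13 of the Inhba cluster were partly in the same cells. Mmp10 and Mmp13 UMIs were found together in 55 of the 227 cells, and the product of their shares would give 35.8 cells. Of the 20 cells with Mmp3, 17 also had Mmp13 (product 9.43) and 10 had Mmp10 (product 6.70). Cells with both Mmp10 and Mmp13 were deeper, with a median of 10316 UMIs, than cells with Mmp13 only (6022.5), Mmp10 only (6535) or neither of them (5143). The part of depth in this overlap was not tested. In the stromal-like cells Mmp2 and Mmp14 were found together in 42 of 67 cells, and the product of the shares would give 42.7.

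**Figure D4:**
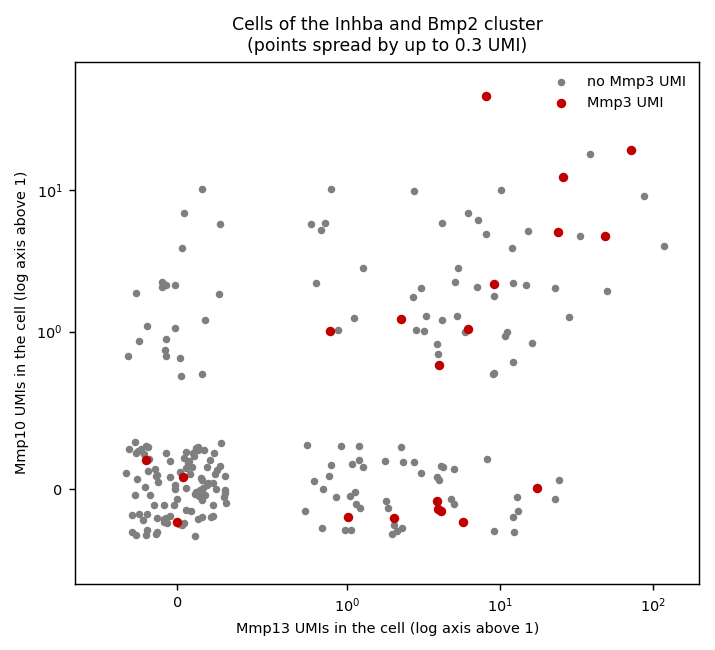
Mmp13 (x axis) and Mmp10 UMIs (y axis) in each of the 227 cells of the Inhba and Bmp2 cluster of the medium-size tumor, on axes that are linear up to 1 and log above, with points spread by up to 0.3 UMI; red points are the 20 cells with a Mmp3 UMI. 17 of these 20 cells also held Mmp13, and 99 cells held neither Mmp13 nor Mmp10.

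In the large-size tumor, Mmp13 and Mmp10 were again highest in the cluster with few epithelial markers. In the Ggct and Ramp1 cluster Mmp13 was 100.5 CPM (73.3 to 134, 45 of 76 UMIs) and Mmp10 was 38.0 CPM (22.1 to 60.8, 17 of 25 UMIs). The cycling cluster had 33.4 CPM of Mmp13 (20.4 to 51.6), and the enterocyte-like, goblet-like, Onecut2 and Gkn2 clusters held 6 Mmp13 UMIs between them. In the small Upk3a cluster 1 Mmp13 UMI made 51.9 CPM. The Onecut2 cluster had 22.7 CPM of Mmp10 on 5 UMIs, 4 of them in 1 cell. That level lies inside the interval of the Ggct cluster, so the order for Mmp10 was not fixed at this depth. The Ggct cluster had 5.62 times (3.41 to 9.42) the Mmp13 and 7.17 times (2.93 to 19.2) the Mmp10 level of the other epithelial-like cells, and with 10 CPM added neither was past 4-fold, as 0.504% of genes were. Without this cluster the epithelial-like levels were 17.9 CPM (11.8 to 26.0) for Mmp13 and 5.30 CPM (2.29 to 10.4) for Mmp10. Mmp3 differed from this, with 7 of 13 UMIs in 3 stromal-like cells (103 CPM, 41.3 to 212) and 2 UMIs in the Ggct cluster. The 214 enterocyte-like and 154 goblet-like cells of this tumor had 1 and 0 UMIs of Mmp14, and 0 UMIs of Mmp7 and Mmp10. Mmp13 and Mmp14, the members that passed the filter, were called lower in the goblet-like cells, beside 4.35% of genes. Both held 0 UMIs there, and at the limit of 16.8 CPM neither would have been called.

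The members have neighbors on chromosome 9, and the Yap1 and Birc2 cluster of the medium-size tumor (255 cells) was led by genes from this stretch although they had been left out of the clustering. Among 35 measured genes within 3000000 bases of the metalloproteinase cluster, 18 passed the filter. The 7 tested genes other than metalloproteinases from Dync2h1 to Cep126 were all at least 5.19 times as high there as in the other epithelial-like cells. These were Dync2h1 (5.28), Dcun1d5 (5.604), Tmem123 (5.88), Birc2 (7.51), Birc3 (5.19), Yap1 (6.82) and Cep126 (6.95), of which Yap1 is a transcriptional co-activator and Birc2 and Birc3 are inhibitors of apoptosis. By the 4-fold rule 4 of them (Dcun1d5, Tmem123, Birc2 and Yap1) were called, beside 0.0843% of all genes. The cluster had been picked as that with the highest Yap1 and Birc2, so the calls of these genes follow in part from the choice.

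The ratios of the metalloproteinases in the middle of this stretch depended on the comparison group. Mmp13 was 2.30 times (2.07 to 2.54) the other epithelial-like cells, Mmp3 1.05 (0.693 to 1.55), Mmp12 0.784 (0.415 to 1.37), Mmp10 0.563 (0.381 to 0.806) and Mmp7 0.0602 (0.0459 to 0.0776). That group holds the Inhba cluster, where Mmp13, Mmp3 and Mmp10 were highest. With the Inhba cluster left out of it, Mmp13 was 8.36 times (7.27 to 9.62), Mmp3 16.2 times (7.73 to 37.0, 31 against 10 UMIs) and Mmp10 3.74 times (2.32 to 5.98) as high, while Mmp12 (0.850) and Mmp7 (0.0540) changed little and the 7 other genes lay between 4.73 and 7.05. The 31 Mmp3 UMIs came from 6 cells, 12 of them from 1 cell, and the 33 Mmp10 UMIs from 9 cells, 9 of them from 1 cell. The Mmp13 ratio of 2.30, whose comparison group holds the Inhba cluster, depended also on a single cell and on the choice of variable genes. Of the 527 Mmp13 UMIs, 187 came from 1 cell. That ratio was 1.49 without this cell, 1.63 without the highest cell of the comparison group as well, and 0.838 with variable genes chosen by mean.var.plot. Without this cell the Mmp13 level of the Yap1 cluster was 131 CPM, against 24.2 CPM in the group without the Inhba cluster. The nearest tested genes outside, Pdgfd (0.0632) and Arhgap42 (0.544), were lower. In the epithelial-like cells of the large-size tumor Birc2 held 19 UMIs in all, and 5 of the 35 genes passed the filter, so the stretch could be described there only in part. The cluster highest in Yap1 was the Upk3a cluster of 18 cells, with 1 Yap1 UMI. Of the 5 genes 1 was called there, Tmem123 at 15.1 times (6.58 to 30.6) on 9 UMIs, beside 83 of 4365 genes. Dcun1d5 was 0.659 (0.0795 to 2.40) and Yap1 1.32 (0.0331 to 7.60).

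**Figure D5:**
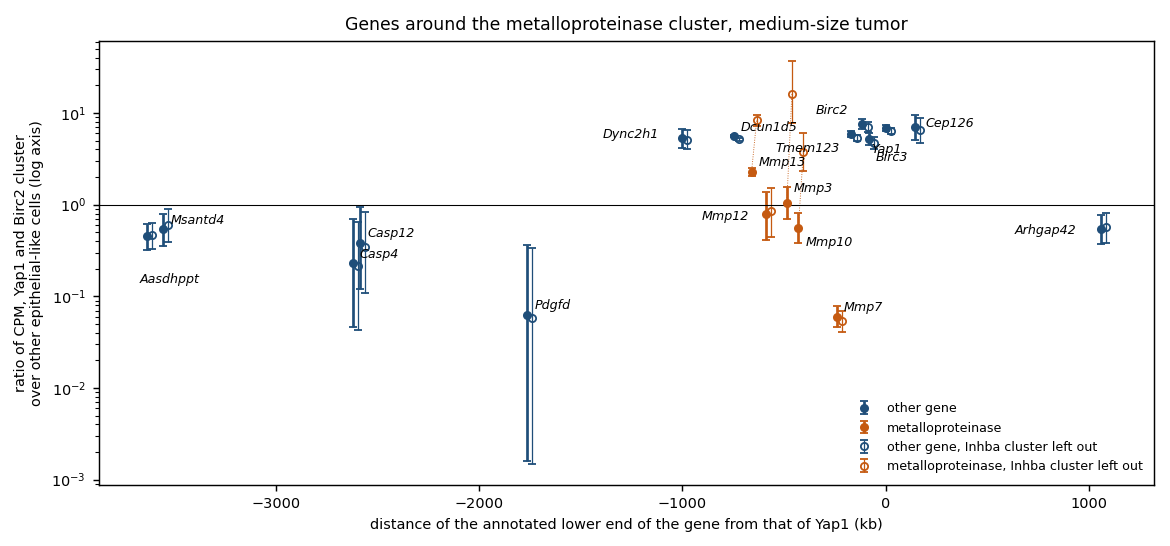
Ratio of CPM (log axis) between the Yap1 and Birc2 cluster and the other epithelial-like cells for 18 tested genes around the metalloproteinases (medium-size tumor), against the distance from Yap1 in kb; bars are exact 95% conditional intervals, and open points, set to the right by 25 kb, leave the Inhba cluster out of the comparison. The 7 genes from Dync2h1 to Cep126 that are not metalloproteinases lie between 5.19 and 7.51 (4.73 and 7.05 for open points), whereas Mmp13, Mmp3 and Mmp10 move from 2.30, 1.05 and 0.563 to 8.36, 16.2 and 3.74.

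The other genes of the pathway were taken from lists made with earlier results of these data known. Of 15 further metalloproteinase genes, 4 passed the filter across the cells of the medium-size tumor. Mmp19 was higher in macrophage-like (83.6 CPM) and mesothelial-like cells (91.9 CPM) than in epithelial-like cells (3.32 CPM), and Mmp23 in stromal-like (169 CPM) and mesothelial-like cells (135 CPM). The median ratio of the list was 3.16 in mesothelial-like and 2.22 in stromal-like cells, beside 0.887 and 0.916 over all genes tested, and between 0.565 and 1.01 in the other 4 groups of cells.

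Of the 5 inhibitors listed, 3 passed. Timp1, a secreted inhibitor, was 3979 CPM (3768 to 4200) in stromal-like, 825 in mesothelial-like and 179 in epithelial-like cells (medium-size tumor), and Timp3, which binds to the matrix, was 2461 (2295 to 2636), 1106 and 23.7 CPM. Both were called higher in stromal-like cells, 2 of 3 beside 2.37% of all genes. Stromal-like levels in the large-size tumor were 4505 CPM (4015 to 5038) for Timp1 and 1893 (1580 to 2249) for Timp3, and both were called again, 2 of 3 beside 1.53% of all genes. The class highest in Mmp2 was thus also the highest in Timp1 and Timp3 in each tumor. Among the epithelial-like clusters, 1 of the 3 inhibitors tested, Timp1, was called higher in the Inhba cluster, beside 0.45% of all genes, at 626 CPM (590 to 662.5), and Timp2 stood at 594 CPM.

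Of the 9 AP-1 genes tested, 0 were called in the Inhba cluster, where 0.45% of all genes were called higher and 0.693% lower, so that a count of 0 in so short a list is near the background. The median ratio of the list was 0.971 there, beside 1.01 over all genes. In the Dmbt1 cluster, where Mmp7 was highest, Fosb (1359 CPM) and Jun (1673 CPM) were called higher, 2 of 9 beside 0.403% of genes, and Fos stood at 3357 CPM. In the Tff3 cluster, where Mmp7 was nearly as high, Fosb was 140 CPM, Jun 312 CPM and Fos 707 CPM, below the Gkn1 cluster for Fosb (406), Jun (381) and Fos (1335). These genes are also known to be induced when tissue is dissociated, and the part of that was not tested. Of the 5 genes of activation and docking (6 listed) and the 8 EMT genes (9 listed) that passed the filter, 0 were called in the Inhba cluster, again near the 0.45% and 0.693% of all genes called higher and lower, with median ratios of 1.28 and 2.24 beside 1.01. Plau, the urokinase gene, held 1 UMI there. In the Ggct cluster of the large-size tumor 1 of 3 EMT genes tested, Fn1, was called higher, beside 0.504% of genes, with a median ratio of 3.19 beside 0.988. In the medium-size tumor Fn1 was called higher in the Krt17 cluster, beside 23 of 10677 genes. It was called lower in the Gkn1 (beside 0.234% of genes), cycling (0.169%) and Yap1 clusters (0.459%).

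The genes whose pattern over the 14 clusters of the medium-size tumor was most like a member were sought by Pearson's r of log2(CPM + 10). The clusters share 1 library and differ in depth, so r is a description. Mmp2 was most like Tagln (0.971), Acta2 (0.962) and Serpinf1 (0.960). Mmp12 was most like Lilrb4a (0.983), Bcl2a1a (0.982) and Rnase2a (0.981), and Mmp7 like Sftpd (0.957), Ly6d (0.946) and Tstd1 (0.938). Mmp3 and Mmp10 were each the most like gene of the other (0.936), followed for both by Srp14 and Bdnf. Mmp13 was most like Fgf13 (0.912), with Mmp10 at 0.751 and Mmp3 at 0.694. Mmp9 was most like Retnla (0.902) and Mmp14 like Klc1 (0.938). Among the members, Mmp14 alone had the 100 UMIs needed for this in the large-size tumor, where r with Klc1 over its 10 clusters was -0.19.

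Between the tumors, the members were compared class by class. In epithelial-like cells Mmp7 was 15.3 CPM in the large-size and 330 CPM in the medium-size tumor, 21.6 times lower (15.1 to 32.0). It was the 1 member of 8 called lower by the 4-fold rule, beside 0.754% of all genes. Mmp13 was 2.84 times (2.25 to 3.65), Mmp14 2.23 times (1.80 to 2.79) and Mmp10 1.65 times (1.10 to 2.58) lower. Without the Inhba and Ggct clusters Mmp10 was no longer lower, at 5.30 CPM (2.29 to 10.4) in the large-size and 4.87 CPM (3.86 to 6.07) in the medium-size tumor. Mmp7 was then 19.9 and 361 CPM, Mmp13 17.9 and 52.8 CPM and Mmp14 43.0 and 90.1 CPM. The median ratio of the 8 members with 10 CPM added was 0.669, beside 0.924 over all genes tested. Mmp3, Mmp9, Mmp12 and Mmp2 had at most 6 UMIs in these cells of the large-size tumor. When the enterocyte-like, goblet-like and Upk3a clusters of the large-size tumor were left out, the ratio of Mmp7 was 0.0580 and that of Mmp13 0.428, against 0.0464 and 0.352 with them. The leading clusters also differed: no cluster of the large-size tumor had Dmbt1, Lcn2 and Sftpd together among its leading genes, and Dmbt1 was among those of the goblet-like cluster, where Mmp7 had 0 UMIs.

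In macrophage-like cells Mmp12 was 4.64 times (3.32 to 6.68) lower in the large-size tumor, 1 of 3 members tested beside 2.25% of genes. Over the alternative settings the ratio of the large-size to the medium-size tumor ranged from 0.0665 to 0.244, so its size depended on the processing. In the same class the summed granulocyte markers were 182.5 CPM in the medium-size and 9104 CPM in the large-size tumor, and the 11 macrophage markers summed to 30640 and 21370 CPM with 0 undetected in either. Single macrophage markers did not all change alike. C1qa, a complement gene of macrophages, was 2598 and 907 CPM. Lyz2 was 19320 CPM in the Wfdc17 and 13740 CPM in the Cd74 cluster of the medium-size tumor, and 14820 CPM in the large-size tumor. The part of these markers in the Mmp12 difference was not tested. Mmp9 in macrophage-like cells was 51.0 CPM and 57.6 CPM with a ratio of 0.885 (0.402 to 1.76). In stromal-like cells Mmp2 was 4.02 times (2.43 to 7.11) lower, which with 10 CPM added did not reach the 4-fold rule, as 7.52% of genes did, and Mmp14 was 1.72 times (1.03 to 3.03) lower. Mmp3 went the other way, from 33.1 to 103 CPM, a ratio of 3.10 (1.02 to 8.76) on 11 and 7 UMIs. In each tumor 1 cell held most of these, 6 and 4 UMIs, and without it the levels were 15.2 and 44.5 CPM. Each of these compares 1 tumor with 1 tumor, and no spread between animals stands behind them.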

How the data were processed

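Tumors were dissociated and libraries made with the 10x Genomics Chromium 3′ kit (v2). Per the labels, the authors processed reads with Cell Ranger against mm10; its version was not given in the sources used here. The deposited values are raw UMI counts per gene and cell, 1 table per tumor with the 4 technical replicates pooled. Cells were used as deposited, without a further filter. Counts were log-normalized and clustered with Seurat 5.3.0 (R 4.3.3; 2000 variable genes, 10 principal components, default resolution), leaving out 53 genes (members, related genes and those within 3000000 bases on chromosome 9). A marker counted when seen in 10% of cells and at 25% of its highest cluster. A class needed 3 markers, and a rival class with 60% of its markers left a cluster unnamed. Scrublet (scanpy 1.11.5) called 0 doublets in the medium-size and 9 (0.587%) in the large-size tumor, and none were removed. CPM were summed UMIs per 1000000. Ratios were called at 4-fold with 10 CPM added and at least 50 UMIs, and genes like a member needed 200 UMIs. Ratios and intervals were tested on simulated data. Named genes were the 8 members, up to 4 genes per list, 2 to 4 leading genes per cluster and the 3 most like genes. Members, lists and marker thresholds were chosen with earlier results of these data known. Positions are from GENCODE M21. A further item of the genotype is not reported here.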

Additional observations from a re-analysis of the deposited data

How the results depend on the processing

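Each tumor was 1 sample, so no result has a spread between animals, and the large-size tumor, at a median of 1037 UMIs per cell, left levels of a few UMIs that the depth could hardly fix. No paired analysis was possible because the replicates of each tumor are pooled in 1 table without columns of their own, and for the same reason no replicate could be left out. Leaving out the highest cell of a group, or of both groups in a ratio, the Inhba cluster or the gut-like clusters, and comparing the clusters with all other cells, were chosen after seeing the data. Of 398 alternative values of 38 ratios, 319 moved by less than the counting interval, 63 moved further on the same side of 1 and 11 turned direction. The other 5 crossed 1 where the reported interval includes 1. The setting of at least 500 detected genes kept all 2812 cells of the medium-size tumor. Its ratios within that tumor therefore equal the reported ones by construction, and they are counted among the 319. Mmp13 in epithelial-like over all other cells of the large-size tumor, 2.58 (0.964 to 9.71), was 0.2875 at resolution 1.2 and 0.743 with classes called cell by cell. Mmp3 in the Yap1 cluster, 1.05, was 0.593 at resolution 0.4, 0.4125 by mean.var.plot and 0.647 without its highest cell, but 14.1 at resolution 1.2 and 8.37 with 20 principal components. The ratio of Mmp12 in macrophage-like to all other cells was 81.7 at resolution 0.4 (medium-size tumor) and 24.85 in cells with at least 500 genes (large-size tumor). That of Mmp7 in epithelial-like cells, 2.49 as reported and 2.43 at its lowest (20 principal components), moved to 3.63 at resolution 1.2, 5.78 with variable genes by mean.var.plot, 5.31 with classes called cell by cell, 3.40 without the highest 5% of Scrublet scores and 3.77 as a mean of per-cell CPM. Mmp7 in the Dmbt1 cluster was 18.97 times the other epithelial-like cells at resolution 0.4, 7.85 at 1.2, 12.1 by mean.var.plot and 6.44 per cell. In the Tff3 cluster, found in each setting as that highest in Ly6k, the Mmp7 ratio ranged from 5.80 to 18.97. The highest value is the same for both, so the pair may not be separate in every setting. At resolution 1.2 the same 227 Inhba cells had 2 of 13 epithelial markers and were unnamed, so they left the epithelial-like class by construction. The epithelial-like ratios then turned to 0.200 for Mmp13, 0.0627 for Mmp10 and 0.058 for Mmp3, and the ratios in the cluster next highest in Inhba to 0.175, 0.880 and 0.412. Classes called cell by cell gave 0.332 for Mmp13. Mmp10 in the Ggct cluster of the large-size tumor turned to 0.513 at resolution 1.2 in the same way. Mmp13 in the Inhba cluster was 9.27 with 20 principal components, 13.7 per cell, 9.36 without its highest cell and 11.96 without the highest cell of both groups. Against all other cells it was 10.05, 15.1, 10.1 and 12.8. Mmp13 in the Ggct cluster was 2.97 in cells with at least 500 genes and 11.1 per cell. Mmp13 in the Yap1 cluster turned to 0.838 by mean.var.plot, and the cause was not tested. Mmp10 there turned to 3.27 at resolution 1.2 and to 3.74 without the Inhba cluster, in both of which the comparison lacks that cluster by construction. The ratio of Mmp7 between tumors was 0.0294 without the highest cell of the large-size tumor and 0.0300 without that of each tumor. Mmp3 in epithelial-like and in stromal-like over all other cells (medium-size tumor), 1.93 and 3.18, was 1.01 and 1.46 without the highest cell of the class. Members past 4-fold in a named class of the medium-size tumor numbered 2 (7.28% of all genes were past it in some class), but 7 with cells called singly (20.6%), 4 without the highest Scrublet scores (7.96%) and 7 at a fold of 2 (20.6%). In its epithelial-like clusters they numbered 4 (1.87%), of which the Mmp3 call in the Inhba cluster rested on 1 cell, and 2 at resolution 1.2 (1.81%). In the large-size tumor the class count of 1 (12.6%) was 5 without the filter (11.2%), and the cluster count of 0 (8.71%) was 1 by mean.var.plot (8.65%), per cell (9.23%), without the filter (7.43%) or at a fold of 2 (35.1%). At resolution 0.4 and with 20 principal components stromal and mesothelial cells shared an unnamed cluster, so the stromal-like ratios of Mmp2, Mmp3 and Mmp14 had no value, nor had Mmp2 in the large-size tumor without the highest cell of both groups, since the comparison group was then at 0 UMIs.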
